A study of Arabidopsis thaliana with 26 samples.

Results

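The comparison described here is the last interval of dark-induced leaf senescence sampled in wild-type Arabidopsis thaliana: Col-0 leaves after 6 days of darkening against Col-0 leaves after 3 days. Its members are the 6 arrays whose titles give the accession Col-0 and 6 or 3 days of darkness, 3 arrays for each day, out of 26 arrays in the series. All 26676 rows of the table entered the comparison, each row being 1 probe set summarised on the log2 scale. Plants grew in short days, and fully expanded leaves, 2 on a plant, were covered singly with foil-coated mittens while the remaining rosette kept its normal light and dark cycle. Blades were taken at noon. The other arrays hold Col-0 leaves at 1 day of darkening and in light (day 0), and leaves of a PIF5 knockout (pif5; the allele is pif5-621) at days 12, 6, 3, 1 and 0, with 2 arrays at day 12 and 3 in every other group. The labels give no age for the leaves, do not say whether an array holds 1 plant or several, and do not say whether replicates came from separate plants. The p-values therefore cover only variation among these arrays, and part of it may be technical. The level of PIF5 itself was not checked, for the reason given below on row names, so genotypes are taken as labelled.

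A leaf that is shaded while the plant stays lit is dismantled from within. Chloroplast proteins and chlorophyll are broken down, and the nitrogen they held is sent to the lit parts of the plant. The programme is driven by transcription factors, among them the phytochrome-interacting factors PIF4 and PIF5, which accumulate when light no longer converts phytochrome to its active form. They raise ethylene and abscisic acid signalling and the expression of senescence regulators, and plants that lack them stay green longer in the dark. The interval from day 3 to day 6 is the late phase of this process in the leaves studied here.

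No gene is named in what follows, because the names given for the rows were not borne out by the values. The platform annotation lists 1 gene for 16179 rows, several for 588 and none for 9909. Some rows carry the very same set of several genes, so their values should move together if the names fit. There were 201 such pairs, from 143 gene sets. Over the 26 arrays the median correlation within a pair was 0.0078, the mean levels of the pair members had a correlation of -0.047 and their late changes -0.013. Rows listed for 11 nuclear genes of photosynthesis, which are among the most abundant transcripts of a green leaf, ranked in the middle of the table. Their median percentile was 58.8 by mean level over all 26 arrays, most of which hold darkened leaves. The first day of darkening in Col-0 called 4 of the 11 lower and 1 higher, against 18.8% and 19.4% of all rows. So few rows do not settle whether the names fit. Rows are accordingly cited by their identifier, the identity of the transcript behind each is not stated, and the leaf identity of the samples was not checked through marker genes. The values themselves were repeatable. Replicate arrays of Col-0 at day 6 had correlations of 0.989 to 0.991 with each other and those at day 3 of 0.984 to 0.987. The root mean square difference between arrays was 0.22 to 0.24 among day 6 arrays and 0.26 to 0.28 among day 3 arrays, against 0.38 to 0.42 for the 9 pairs of a day 6 with a day 3 array (log2 scale).

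Between day 3 and day 6, a limited set of rows rose at least 2-fold in Col-0 leaves and a smaller set fell at least 2-fold. A row is called here when its limma adjusted p was below 0.05 in a fit over all 9 groups, with Benjamini-Hochberg adjustment over all rows. Of 26676 rows 2798 were called, a share of 10.5%. Higher at day 6 were 1505 rows (5.64%) and lower were 1293 (4.85%). When each of the 6 compared arrays was left out in turn, 1310 of the 2798 rows were called in all 6 fits. The number of calls was smallest without Col-0 day 3 replicate 2, at 1839 rows with 740 lower. Without Col-0 day 6 replicate 1 or 2 the lower calls numbered 803 and 777. Most calls were small, with a median change of 0.68 on the log2 scale among rows called higher and -0.55 among rows called lower. The median over all rows was -0.04. The 5th percentile of all changes was -0.45 and the 95th was 0.48.

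The large changes were mostly rises. At least 2-fold higher at day 6 were 392 called rows (1.47% of all rows), against 111 at least 2-fold lower (0.416%). With 1 of the 6 arrays left out the rises numbered 371 to 405 and the falls 100 to 128, and 294 of the 392 rises and 70 of the 111 falls were found in all 6 of these fits. Among the rises 57 rows changed between 4-fold and 8-fold and 23 at least 8-fold. Among the falls these numbers were 6 and 1. For 192 rises and 37 falls the whole 95% interval of the change lay beyond 2-fold. The 3 arrays of day 6 stood entirely above those of day 3 in all 392 rises, a separation that 12.6% of all rows show. They stood entirely below in 110 of 111 falls, which 15.9% of all rows show. These rows were called on the same 6 arrays, which favours such a separation, so the counts are descriptions. The called rows nearest to the 2-fold bound were, outside it, rows 13387758 (log2 change 1.00), 13379308 (1.00) and 13542212 (0.99) among the rises and 13384205, 13355256 and 13478705 (-1.0 each) among the falls. Just inside it lay 13493470, 13336571 and 13446720 (1.00 each) and 13392156 (-1.0), 13408324 (-1.01) and 13545213 (-1.01).

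**Figure D1:**
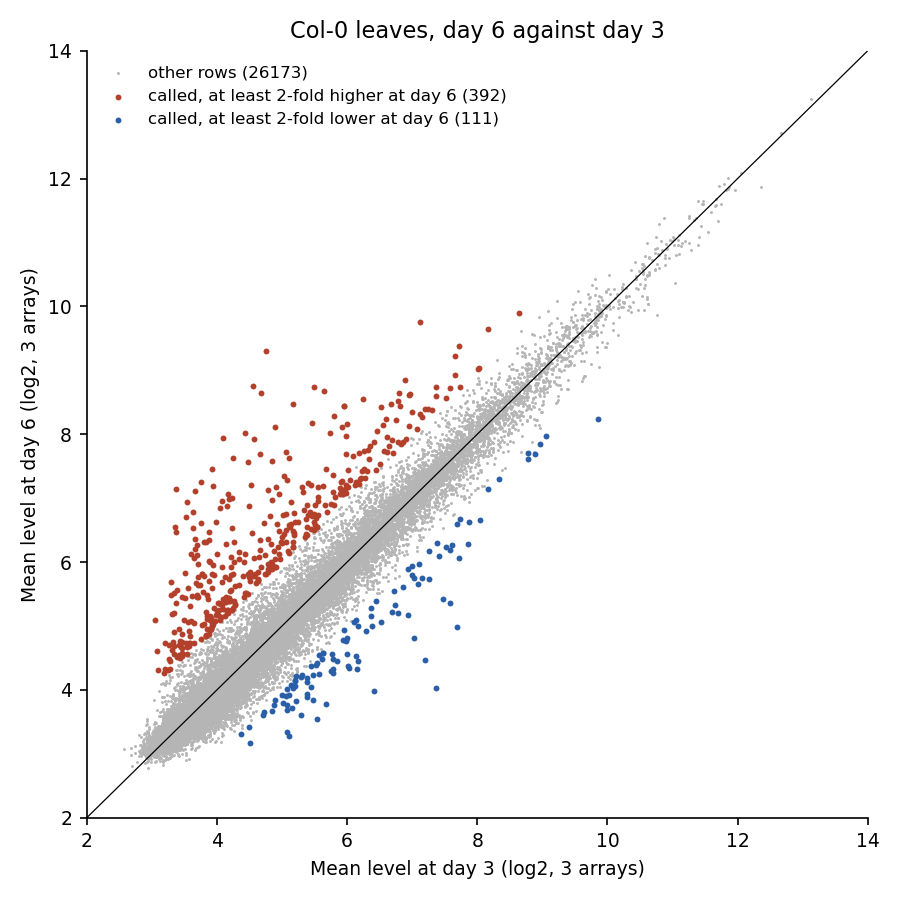
Mean level at day 6 (vertical) against mean level at day 3 (horizontal) in Col-0 leaves, both on the log2 scale over 3 arrays, with 1 point for each of 26676 rows. The 392 rows called at least 2-fold higher at day 6 lie above the diagonal, most of them from the dim and middle part of the day 3 scale, and the 111 rows called at least 2-fold lower lie below it.

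Rises and falls came from different parts of the level scale. When rows were split into quartiles by their mean level over all 26 arrays, the dimmest quartile held 101 rows called higher and 32 called lower, of 6669 rows. In the next quartile up these were 436 and 192, in the one above it 534 and 469, and in the brightest 434 and 600. Rises thus outnumbered falls in all quartiles but the brightest. Of the 392 strong rises 170 had a mean level below the median row, against 1 of the 111 strong falls. At day 3, 139 of the 392 rises lay under the median of the array on all 3 arrays, and at day 6, 224 lay in the top quartile of the array on all 3. Of the 111 falls 54 lay in the top quartile on all 3 arrays at day 3 and 18 still did at day 6, when 30 lay under the array median. The dimmest quartile spans mean levels of 2.89 to 3.52, and how far the dim end of the scale limits the falls that can be measured was not tested. In whole leaves a lower share of cells with a transcript and less transcript in each cell cannot be told apart.

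**Figure D2:**
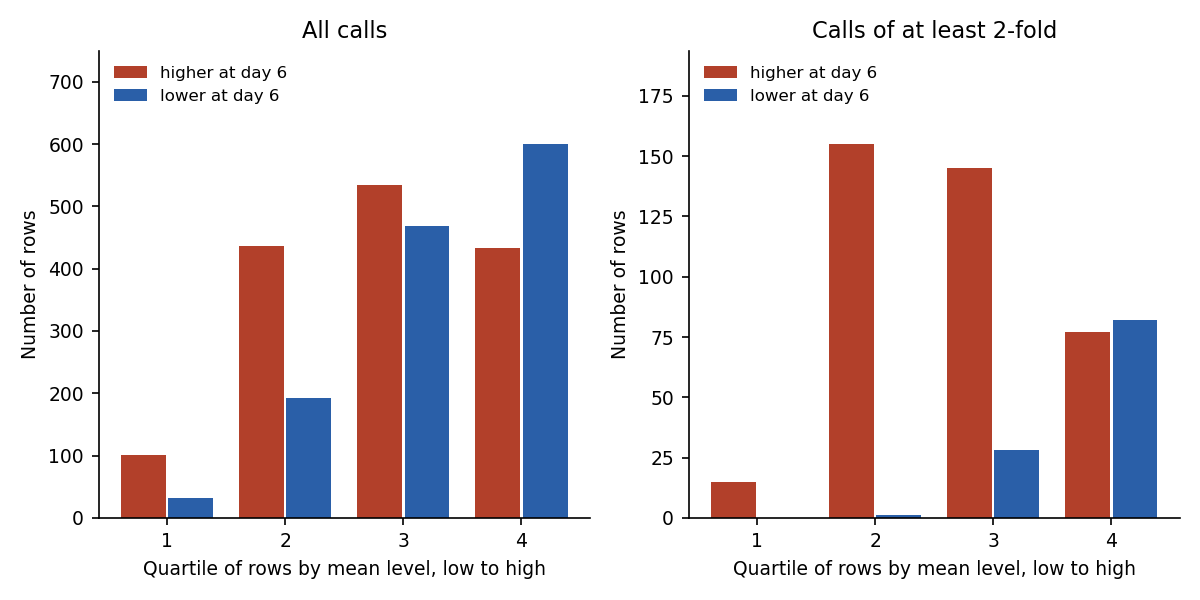
Number of rows called higher and lower at day 6 than at day 3 in Col-0, in quartiles of all rows ordered by mean level over 26 arrays (6669 rows each), for all calls and for calls of at least 2-fold. Calls of at least 2-fold number 15, 155, 145 and 77 upward and 0, 1, 28 and 82 downward from the dimmest to the brightest quartile.

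The rows with the largest rises were low in light and still low after 3 days in darkness. By the rule used for naming, these are the 15 called rows with the largest change whose day 6 and day 3 arrays do not overlap. Their changes ran from 3.24 to 4.55 on the log2 scale, which is 9.45-fold to 23.4-fold. Group means ran from 6.95 to 9.30 at day 6 (median 7.93), against 3.37 to 5.50 at day 3 (median 4.25). In light the same rows lay between 3.22 and 5.30, and array medians in the series lay between 4.20 and 4.33. The first day of darkening had called 2 of the 15 higher and left 13 uncalled. Over all rows it called 19.4% higher and 18.8% lower and left 61.8% uncalled.

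Row 13454993 had the largest rise, with levels of 9.27, 9.23 and 9.39 on the day 6 arrays, against 4.57, 4.81 and 4.88 on the day 3 arrays. The change was 4.55 ± 0.22 (SE; limma adjusted p = 1.7e-14). It had lain at 3.40 ± 0.07 in light and at 4.05 ± 0.29 after 1 day (SD, n = 3 each), so that most of its increase fell within these 3 days.

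Row 13489742 stood at 8.79, 8.68 and 8.79 at day 6, against 4.34, 4.65 and 4.69 at day 3. Its change was 4.20 ± 0.23 (SE; limma adjusted p = 2.6e-13). Its level at day 3 did not exceed that at day 1, which was 4.69 ± 0.15 (SD, n = 3), so that a plateau of 2 days came before the rise.

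Row 13375294 gave 7.47, 7.14 and 6.84 at day 6, against 3.09, 3.69 and 3.34 at day 3. The change was 3.78 ± 0.18 (SE; limma adjusted p = 1.5e-14). Before that the row was flat, with means of 3.41 ± 0.36 in light, 3.36 ± 0.12 after 1 day and 3.37 ± 0.30 after 3 days (SD, n = 3 each), all under the array medians.

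Row 13398734 had the same course, with 6.87, 7.01 and 6.97 at day 6, against 3.34, 3.64 and 3.63 at day 3 (change 3.41 ± 0.15 SE; limma adjusted p = 2.3e-15). Row 13422020 started from a level above the array medians. It held 8.95, 8.87 and 8.40 at day 6, against 5.41, 5.46 and 5.61 at day 3, and had lain between 5.17 and 5.50 as a group mean from light to day 3. Its change was 3.24 ± 0.14 (SE; limma adjusted p = 2.2e-15).

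Row 13513773 had also been called higher from day 1 to day 3, as had rows 13454993, 13473409 and 13500734. It held 8.72, 8.54 and 8.18 at day 6, against 5.25, 4.78 and 5.46 at day 3, and had lain at 3.60 ± 0.13 at day 1 (SD, n = 3). The late change was 3.32 ± 0.21 (SE; limma adjusted p = 3.2e-12). Of the 15 rows it alone was also called higher in pif5 over the same interval, by 0.90 (limma adjusted p = 0.0083).

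The remaining rows of this group were 13456737, 13473409, 13477395, 13519653, 13485161, 13358593, 13428867, 13500734 and 13368658. Within each, every day 6 array exceeded every day 3 array. The least even was 13477395, with means of 8.02 ± 0.50 at day 6, against 4.43 ± 0.54 at day 3 (SD, n = 3; change 3.58 ± 0.28 SE; limma adjusted p = 3.8e-10).

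The rows with the largest falls had mostly been bright in the first days and reached low levels at day 6. The 15 rows chosen in the same way fell by 1.70 to 3.34 on the log2 scale, 3.24-fold to 10.2-fold. Their group means were 3.27 to 5.43 at day 6, against 5.08 to 7.69 at day 3. Earlier they ran from 5.28 to 11.57 at day 1 (median 8.51) and from 5.18 to 11.47 in light (median 8.02). The first day of darkening had called 2 of the 15 higher and 5 lower, where over all rows it called 19.4% higher and 18.8% lower.

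Row 13499630 had the largest fall. Its levels were 4.10, 4.03 and 3.95 on the day 6 arrays, against 7.10, 7.25 and 7.76 on the day 3 arrays, a change of -3.34 ± 0.19 (SE; limma adjusted p = 3.3e-13). In light it had stood at 8.99 ± 0.11 and after 1 day at 9.27 ± 0.26 (SD, n = 3 each).

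Row 13402503 followed a pulse. It gave 4.03, 4.21 and 5.15 at day 6, against 7.43, 6.02 and 8.16 at day 3, after 9.91 ± 0.53 at day 1 and 5.18 ± 0.30 in light (each the mean and SD of 3 arrays). By day 6 it was thus back near its light level. The change was -2.74 ± 0.40 (SE; limma adjusted p = 1.7e-05), and its day 3 arrays were spread over more than 2 log2 units.

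Row 13489416 went down late and evenly, with 3.97, 3.86 and 4.11 at day 6, against 6.33, 6.36 and 6.55 at day 3 (change -2.43 ± 0.14 SE; limma adjusted p = 7.8e-13). Row 13495161 was in steady decline, with group means of 11.46 ± 0.15 in light, 9.11 ± 0.11 after 1 day, 6.93 ± 0.09 after 3 days and 5.17 ± 0.16 after 6 days (SD over 3 arrays). Its late change was -1.76 ± 0.12 (SE; limma adjusted p = 2.1e-11), the smallest of its 3 steps.

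Row 13346788 held 5.28, 5.76 and 5.04 at day 6, against 7.16, 8.53 and 7.04 at day 3, and had been at 11.28 ± 0.26 in light (SD, n = 3). Its change of -2.21 ± 0.39 (SE; limma adjusted p = 0.00024) stands beside a wide spread at day 3, where replicate 2 was the highest. The remaining falls were rows 13495603, 13531271, 13531118, 13526950, 13361960, 13429354, 13351126, 13419284, 13471921 and 13535374. Of these 13471921 had the widest arrays, with 4.18, 3.93 and 5.25 at day 6, against 6.16, 5.55 and 6.80 at day 3 (limma adjusted p = 0.005).

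**Figure D3:**
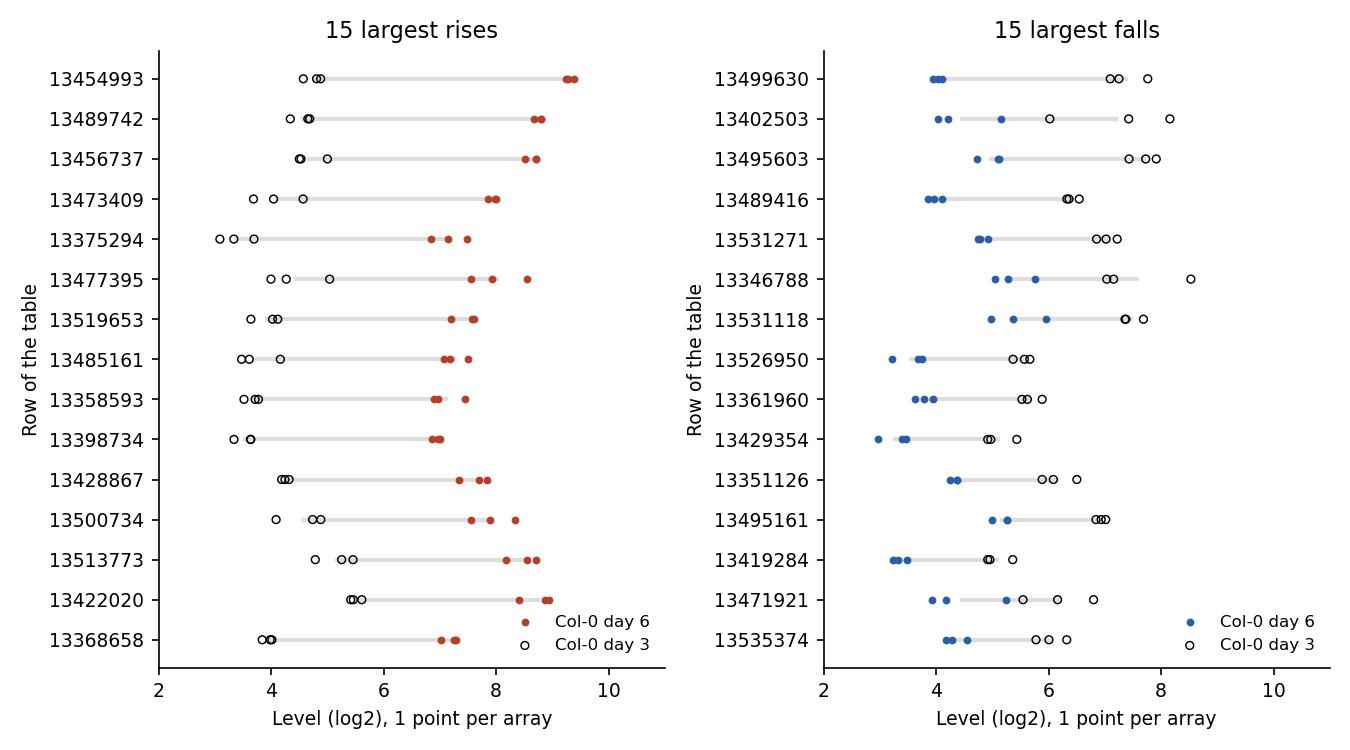
Level (log2) of the 15 largest rises and 15 largest falls between day 6 and day 3 in Col-0, with 1 filled point for each day 6 array, 1 open point for each day 3 array and a bar between the group means. The filled and open points do not overlap in any of these rows, as the rule requires. The changes run from 3.24 to 4.55 in the rises and from -3.34 to -1.70 in the falls.

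Most of the few brightest single rows were not called in the late step, as was true of most rows. Of all rows 10.5% were called, and of the 6669 rows in the brightest quartile 434 were called higher and 600 lower. The single rows below are too few to show whether the brightest rows were called less often than others. The 5 rows with the highest mean at day 6 were 13545271, 13455961, 13392334, 13450754 and 13429350, and none was called, with changes of 0.03 to 0.16 on the log2 scale. Row 13545271, the brightest, held 13.01, 13.21 and 13.50 at day 6, against 13.02, 13.02 and 13.33 at day 3, and the arrays of the groups overlapped. Among the 5 brightest at day 3, which add rows 13384778 and 13512808, row 13384778 was called lower, with 11.75, 11.88 and 11.98 at day 6, against 12.42, 12.21 and 12.46 at day 3. Its change was -0.50 (limma adjusted p = 0.01), and the call was lost without day 3 replicate 3 (adjusted p = 0.051) or day 6 replicate 1 (0.065). Row 13512808 was not called (-0.14, limma adjusted p = 0.81).

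The late step came on top of earlier ones that differed in size and in balance. The first day of darkening called 10196 rows in Col-0 (38.2%), with 1223 at least 2-fold higher (4.58%) and 1898 at least 2-fold lower (7.12%). From day 1 to day 3 there were 4343 calls (16.3%), with 348 at least 2-fold higher (1.3%) and 581 at least 2-fold lower (2.18%). The late step, with 392 strong rises and 111 strong falls, was the one in which large changes were mainly upward by count. These steps last 1, 2 and 3 days, and the root mean square change over all rows was 0.73, 0.42 and 0.35 on the log2 scale. Per day this is 0.73, 0.21 and 0.12. Consecutive steps share a group of arrays, so their values are given side by side and no relation between them was computed.

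The first step shares no array with the late step, and across all rows the changes in these steps had a Pearson correlation of 7.5e-05, a description over rows measured on the same kind of array. Strong late rises had been called in the first step about as often as any row. Of the 392, 90 had risen on the first day (23.0%, against 19.4% of all rows) and 74 had fallen (18.9%, against 18.8%). Of the 111 strong late falls, 38 had risen on the first day (34.2%) and 39 had fallen (35.1%). These shares exceed those of all rows, and the falls are also brighter than most rows, as described above. What this difference in brightness contributes was not tested.

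The late rises were also sorted by their first-day call. This sorting sets their direction from light to day 1, and the choice of rows sets the rise from day 3 to day 6. The 228 rises without a first-day call had a median level of 5.97 at day 6, against 4.14 at day 3, and had lain at 3.71 in light and 3.89 at day 1. The 90 that had risen on the first day went from a median of 3.83 in light through 4.89 at day 1 and 5.06 at day 3 to 6.56 at day 6, in 2 steps with little change between. The 74 that had fallen on the first day had medians of 6.38 in light, 5.16 after 1 day, 5.30 after 3 days and 6.65 after 6 days, so that they ended close to their level in light. Row 13512394, chosen after the values were seen as the largest rise of this last kind, held 7.80, 7.41 and 7.55 at day 6, against 4.68, 4.55 and 5.29 at day 3, and had been at 5.37 ± 0.11 in light and 4.50 ± 0.12 at day 1 (SD, n = 3 each). It overshot its light level on every day 6 array.

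The late falls divided in the same way into 3 groups of similar size. The 39 rows that had fallen on the first day kept falling, with medians of 8.10 in light, 6.76 after 1 day, 5.58 after 3 days and 4.25 after 6 days. The 34 without a first-day call held their light level for a day (7.71 in light, 7.80 at day 1) and then lay at 6.07 at day 3 and 4.51 at day 6. The 38 that had risen on the first day had medians of 5.30 in light, 6.90 after 1 day, 6.37 after 3 days and 5.03 after 6 days. Their median at day 6 thus lay close to that in light, while single rows such as 13351126 and 13361474 ended below their light level.

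The rows with strong late rises in Col-0 had, as a set, little change in the knockout over the same days. In pif5 leaves 1661 rows were called between day 3 and day 6 (6.23% of all rows, 839 higher and 822 lower), and without pif5 day 6 replicate 1 there were 760, without day 3 replicate 2 there were 872. At least 2-fold changes numbered 392 upward and 111 downward in Col-0, against 75 (0.281%) and 71 (0.266%) in pif5. The 392 Col-0 rises had a median level of 6.31 at day 6, against 4.56 at day 3, in Col-0. The rows were chosen for this Col-0 rise, so it is no result of its own. In pif5 they lay at a median of 4.21 at day 6, against 4.19 at day 3, and at 4.12 at day 12. Over single arrays the median of these rows was 6.21 to 6.33 on the 3 Col-0 day 6 arrays. It was 3.93 to 4.05 on the Col-0 arrays in light, 4.18 to 4.24 at day 1 and 4.57 to 4.61 at day 3. On all 14 pif5 arrays, light included, it was 3.98 to 4.46. The highest of these was pif5 day 6 replicate 2, against 4.17 and 4.12 on the other pif5 day 6 arrays.

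The difference of the late step between the genotypes was tested as an interaction term in the same limma fit. It was called at 1282 rows (4.81%), with 857 more positive in Col-0 (3.21%) and 425 more negative (1.59%). Of the 392 Col-0 rises it was called at 336, each more positive in Col-0, and 56 did not pass. Of the 111 Col-0 falls it was called at 46 and not at 65. The rows were chosen on the Col-0 arrays that also enter the interaction, which favours a larger change in Col-0, so these shares are descriptions. Across all rows the late changes of the genotypes, which share no array, had a Pearson correlation of 0.25.

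**Figure D4:**
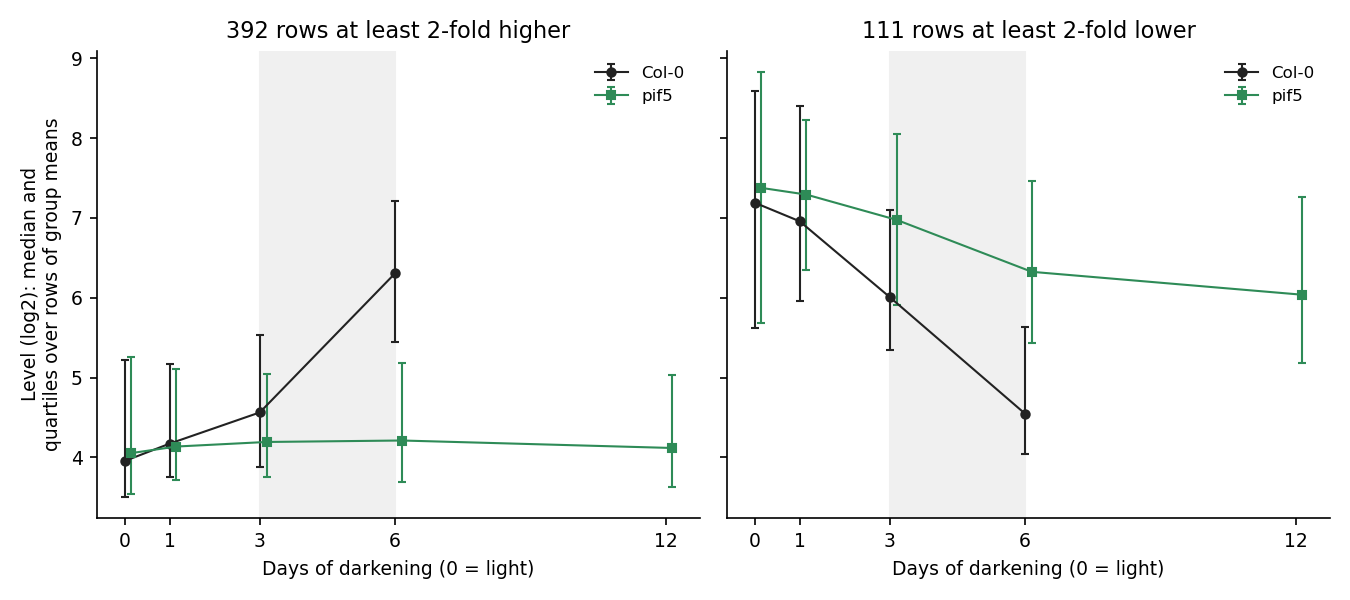
Level (log2) over the days of darkening of the 392 rows called at least 2-fold higher and the 111 called at least 2-fold lower at day 6 than at day 3 in Col-0 (shaded interval), with circles for Col-0 and squares for pif5. Points are medians and bars quartiles over rows of the group means, and the rises reach a median of 6.31 in Col-0 at day 6, against 4.21 in pif5, while the falls reach 4.55, against 6.32.

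The falls were partly shared. Of the 111 Col-0 falls 41 were also called lower in pif5 between day 3 and day 6 (36.9%, against 3.08% of all rows). Called higher there were 2 (1.80%, against 3.15% of all rows). As a share of the 822 pif5 calls downward the 41 are 4.99%. Of the 392 rises 27 were called higher in pif5 (6.89%, against 3.15% of all rows, and 3.22% of the 839 pif5 calls upward). Called lower there were 12 (3.06%, against 3.08% of all rows). The falls had a median late change of -1.25 in Col-0 and -0.51 in pif5, the rises of 1.34 and 0.01. Among all 2798 calls, 195 of the 1505 rises (13.0%, and 23.2% of the pif5 rises) and 235 of the 1293 falls (18.2%, and 28.6% of the pif5 falls) were called in the same direction in pif5.

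A later sampling day exists for pif5 alone. From day 6 to day 12 its leaves had 52 calls (0.195%), with 16 higher (0.06%) and 36 lower (0.135%), on 2 arrays at day 12. Of the 392 Col-0 rises 3 were called higher and 3 lower in that step, and of the 111 Col-0 falls none was called higher and 2 were called lower. The median of the falls in pif5 was 6.98 at day 3, 6.32 at day 6 and 6.04 at day 12, against 4.55 in Col-0 at day 6.

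All 15 of the largest rises passed the interaction test and 11 of the 15 largest falls did, where 4.81% of all rows passed. These rows were ranked on Col-0 arrays that also enter this test, which favours passing, so the counts are descriptions. In pif5 the late changes of the 15 rises ran from -0.21 to 0.90. Row 13489742 had the largest difference, with a late change of 4.20 in Col-0 against -0.21 in pif5 (difference 4.41 ± 0.33 SE; limma adjusted p = 3.5e-10). It was at 4.47 ± 0.60 in pif5 at day 6 (SD, n = 3) and at 4.16 ± 0.39 at day 12 (SD, n = 2). Row 13454993, the largest rise, showed 4.55 in Col-0 against 0.23 in pif5 (difference 4.31 ± 0.31 SE; limma adjusted p = 2.4e-10). From day 6 to day 12 the same row was called higher in pif5, by 1.40 (limma adjusted p = 0.0078), with a mean of 5.48 ± 0.94 at day 12 (SD, n = 2). It is 1 of the 16 rows called higher in that step. Its mean in Col-0 at day 6 was 9.30.

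The 4 largest falls without a called difference were rows 13531271, 13361960, 13429354 and 13471921. Row 13531271 gave 4.92, 4.75 and 4.78 in Col-0 at day 6, against 7.02, 6.85 and 7.22 at day 3. In pif5 it gave 5.55, 5.81 and 6.53 at day 6, against 8.13, 7.91 and 7.58 at day 3. It thus fell in both genotypes, with changes of -2.21 (Col-0) and -1.91 (pif5), and the difference of -0.31 had an SE of 0.35 (limma adjusted p = 0.76). Row 13429354 changed by -1.83 in Col-0 and by -2.61 in pif5 (limma adjusted p of the difference = 0.50).

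Rises that passed in both genotypes without a called difference numbered 17 of the 392, and such falls 35 of the 111. Of all rows 3.15% were called higher and 3.08% lower in pif5. An uncalled difference does not show equal change. Row 13442469, the largest of these rises, changed by 1.77 in Col-0 and by 1.13 in pif5. Among the 3 largest of these rises, picked after their values were seen, row 13474964 held 6.26, 5.85 and 6.10 in Col-0 at day 6, against 4.60, 4.30 and 4.80 at day 3. In pif5 it held 5.21, 5.59 and 5.11 at day 6, against 4.26, 3.76 and 4.02 at day 3. The rises were 1.50 and 1.29, with no overlap of arrays in either genotype (limma adjusted p of the difference = 0.76).

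A few rows moved in opposite directions. Of the 392 Col-0 rises 12 were called lower in pif5 (3.06%, against 3.08% of all rows). Of the 111 falls 2 were called higher (1.80%, against 3.15% of all rows). Neither share exceeds that of all rows. Row 13343205 held 5.83, 5.23 and 5.34 in Col-0 at day 6, against 3.48, 3.66 and 3.70 at day 3, and 3.90, 3.87 and 4.19 in pif5 at day 6, against 5.43, 5.36 and 5.10 at day 3. In Col-0 this was a second rise, since the row had been at 5.73 ± 0.23 at day 1 (SD, n = 3). Row 13361474 held 4.41, 4.52 and 4.53 in Col-0 at day 6, against 5.40, 5.81 and 6.13 at day 3. In pif5 the same row held 9.64, 9.20 and 9.56 at day 6, against 8.69, 8.09 and 7.94 at day 3. The difference of the late step was -2.52 ± 0.33 (SE; limma adjusted p = 6.4e-06), while in light the row lay at 6.67 ± 0.27 in Col-0 leaves and 6.99 ± 0.17 in pif5 leaves (SD over 3 arrays). Both opposite examples were also chosen after their values were seen.

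**Figure D5:**
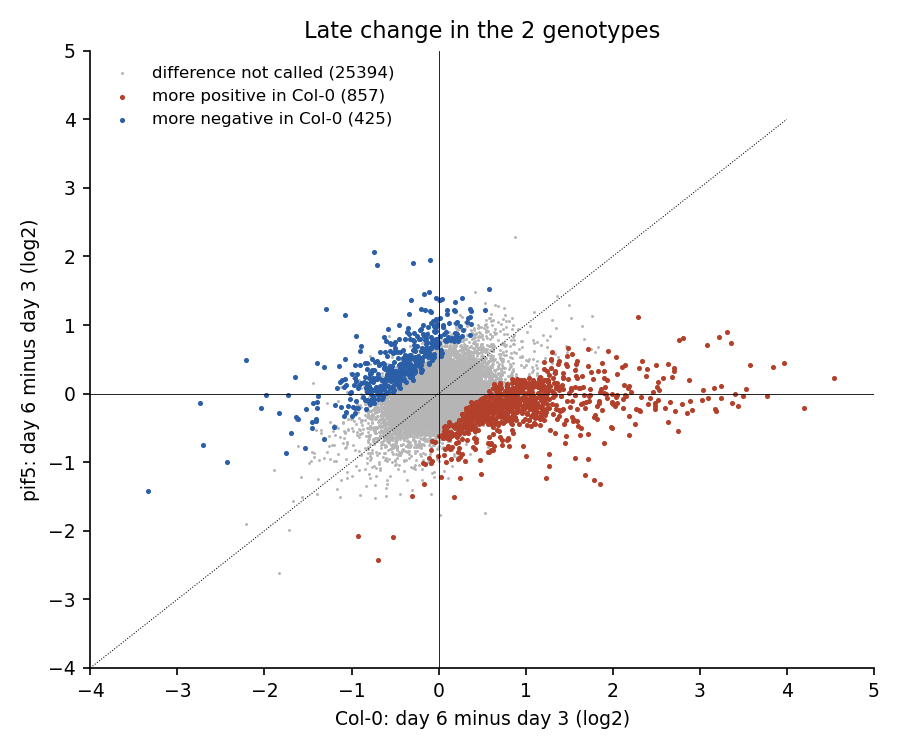
Change from day 3 to day 6 on the log2 scale in Col-0 (horizontal) and pif5 (vertical), 1 point for each row, coloured where the difference between genotypes was called (857 more positive and 425 more negative in Col-0). The dotted diagonal marks equal change, and the largest Col-0 rises lie near the horizontal axis, where pif5 changed little.

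Some rows moved from below the median of the array to its top quartile in the late interval of Col-0. A total of 28 rows lay in the top quartile on every Col-0 day 6 array and below the array median on every Col-0 day 3 array. All 28 were called (10.5% of all rows were), and the difference from pif5 was called at each (4.81% of all rows). The 28 were chosen on Col-0 arrays that enter both tests, which favours these calls, so the counts are descriptions. Day 6 means of the 28 rows ran from 5.93 to 7.46. In light 23 of them were below the median on every Col-0 array, and at day 1 there were 26. In pif5, 22 were below the median on every array at day 3, 19 were at day 6, and 26 were on both day 12 arrays. None reached the top quartile on every array of a pif5 group. In the opposite direction 2 rows crossed in Col-0. The same count between day 3 and day 6 in pif5 was 0 upward and 0 downward. The interaction was not tested for these counts, only for the rows.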

How the data were processed

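The authors deposited 1 table of log2 values, 26 arrays by 26676 probe sets. Biotin-labelled cRNA had been hybridised, per the labels' protocols. The submitters' processing notes name oligo, without version. How background, scaling and summary were set is not given in the sources used here. Every row was fitted with limma 3.58.1 in R 4.3.3 over all 9 groups (17 residual degrees of freedom), with a threshold of 0.05 on the Benjamini-Hochberg adjusted p over all rows and of 2-fold where stated. The number of arrays limits the precision, and probe detection calls were not used here. On simulated arrays with 200 of 26676 rows changed, the fit found 98% of the rows changed by 1 and 100% of those changed by 2 (log2) for Col-0 day 6 against day 3, with 9 false calls. For the difference between genotypes it found 76% and 100%, with 8 false calls.

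Named rows are the 15 largest rises and falls without overlap of arrays, the 5 largest differences between genotypes in each direction, the 5 brightest rows of each day and those nearest to 2-fold. Members, lists and rules were chosen with earlier results of these data known. Gene lists planned for naming (357 genes, 61 with a row) were not tested, since the names did not go with the values. Alternatives were quantile normalization, median centring, a level filter, a fit over the compared groups, a variance trend with robust eBayes, a replicate block and leaving out each array.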

Additional observations from a re-analysis of the deposited data

Results flagged for a closer look

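The late step differed between Col-0 and pif5 at 1282 rows when limma tested the interaction. The differences below are the Col-0 change from day 3 to day 6 minus the pif5 change, on the log2 scale, and all passed that test. The largest positive ones were 4.41 at row 13489742, 4.31 at row 13454993, 3.81 at row 13375294, 3.61 at row 13358593 and 3.54 at row 13485161. In each of these Col-0 rose and the pif5 change did not pass. The largest negative ones were -2.81 at row 13452610, -2.70 at row 13346788, -2.59 at row 13402503, -2.59 at row 13468599 and -2.52 at row 13361474.

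These negative differences had different sources. At rows 13346788 and 13402503 Col-0 fell and the pif5 change did not pass. At row 13361474 Col-0 fell and pif5 rose. At rows 13452610 and 13468599 the Col-0 change did not pass (limma adjusted p = 0.17 and 0.25) and pif5 rose by 2.07 and 1.88. Both had been bright in light, at 9.91 ± 0.75 and 9.88 ± 0.82 in Col-0 (SD, n = 3 each). Row 13452610 stood at 6.64 ± 0.96 in pif5 at day 6 (SD, n = 3), and at 4.17 ± 0.05 at day 12 (SD, n = 2). Its day 6 arrays were thus widely spread.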

How the results depend on the processing

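No count of calls for the Col-0 late step or for the difference between genotypes moved by over 1.5 times under another normalization, the level filter, the fit over the compared groups, the variance trend or the replicate block. With 1 array left out, the Col-0 calls ranged from 1839 to 2371, the lower calls from 740 to 1040, the median change of rows called higher from 0.76 to 0.81 and the pif5 calls from 760 to 1711. Left-out fits have fewer arrays. For 37 named rows, 440 of 442 alternative values of the Col-0 change kept direction and call, and 2 (row 13384778) lost the call. All 180 values of the named differences kept both. The dimmer named rows have no value under the level filter. The replicate block gave 2927 calls. Deviations of same-numbered day 6 and day 3 arrays had correlations of 0.08, 0.0085 and 0.05, each the highest for that day 6 array. Differently numbered arrays had correlations of -0.06 to 0.0066. Values this small do not settle whether same-numbered arrays are pairs, so the block is given as an alternative.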

Other observations

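Small shifts and calls leaned in opposite ways. The 3 day 6 arrays lay entirely below the 3 day 3 arrays in 4236 rows (15.9%) and entirely above in 3364 (12.6%), whereas 1293 rows were called lower and 1505 higher.

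Rows next to each other in identifier order had a correlation of 0.08 in level and 0.07 in late change. For rows 10 places apart these were 0.03 and 0.01. The values describe this table only, and neighbouring identifiers were not tied to neighbouring genes here.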
